A study of Mus musculus with 14 samples.

Results

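Gene expression was compared between day 14 and day 8 in the macrophage fractions of control 4T1 tumours, 7 of the 14 libraries of the series. 4T1 is a mouse mammary carcinoma line. Before injection its cells spent 5 days in culture with the solvent DMSO, as the control, and were then placed in the fat pad of BALB/c mice. Cells carrying F4/80, a surface protein of mature mouse macrophages that the gene Adgre1 encodes, were pulled from the tumours with magnetic beads over 2 columns in succession, and their total RNA was sequenced. There were 3 DMSO libraries from day 8 and 4 from day 14, chosen by their labels alone. The other 7 libraries (3 from day 8, 4 from day 14) came from tumours whose 4T1 cells had been cultured for the same 5 days with 5 µM GSK269962A, a small-molecule kinase inhibitor; they are called GSK libraries here. They entered the fit for its estimate of spread and served for 1 comparison. The labels number the libraries within a group but give neither the age nor the sex of the mice, and do not say that each library came from a separate mouse or from unpooled tumours. The p-values therefore measure the spread between these samples, which may be partly technical.

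Tumour-associated macrophages come from monocytes that enter from the blood and from macrophages already living in the tissue. They engulf dead cells, cut and rebuild the matrix, make factors that act on vessels and tumour cells, and can present antigen. Antigen presentation to CD4+ T cells uses MHC class II: an alpha and a beta chain held together in the endoplasmic reticulum by the invariant chain Cd74, which is cut away in endosomes so that H2-DM can load a peptide. The fat pad, vessels, fibroblasts and tumour cells around them can also contribute RNA to a bead-purified fraction.

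All values are the authors' normalised values on a log2 scale, with no counts behind them here, so that the depth is unknown and a difference of 1 is a factor of 2. Of 24556 genes, 11886 reached an unlogged value of 10 in at least 3 libraries and were tested with limma, with Benjamini-Hochberg adjustment over all of them and 0.05 as the threshold. The fractions carried their label: F4/80 itself (Adgre1) lay at 9.20 ± 0.18 (SD, n = 3) on day 8 and 9.49 ± 0.40 (SD, n = 4) on day 14, and all 18 pan-macrophage markers listed were kept. Pearson correlations across genes were 0.967 to 0.981 within day 8, 0.974 to 0.987 within day 14 and 0.958 to 0.985 between the days. The range between the days reached lower but overlapped both ranges within a day. In each library 1 of the overlapping ribosomal RNA genes AY036118 and Gm42418 held nearly all of their joint signal: AY036118 in 1 of 3 day 8 and 2 of 4 day 14 libraries, Gm42418 in the other 2 of each day. In a principal component analysis of the DMSO libraries, component 1 (36.2% of the variance) parted these kinds of library completely, while the days overlapped. The AY036118 libraries scored -11.47 on day 8 and -25.97 and -22.0 on day 14. The Gm42418 libraries scored 44.25 and 12.86 on day 8 and 1.78 and 0.54 on day 14. Within each kind day 14 thus scored lower than day 8. The labels name no batch.

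Between day 8 and day 14 the control fractions gained RNA of 4 MHC class II genes and of several myeloid receptors, and lost RNA of Mmp9, Cd163, several secreted factors and some genes known from vessels and stroma, such as Hspg2, Col4a1, Rgs5 and Acta2. In all, 98 genes passed the threshold (0.824% of those tested), of which 36 were higher (0.303%) and 62 lower (0.522%) on day 14. Their log2 changes were 0.493 to 2.051 in size, while the median over all 11886 genes was 0.0047 and 50.6% of them had a positive change. All 98 had 7 libraries that did not overlap between the days, which was so for 1198 genes (10.1%) of all tested, and 1828 genes (15.4%) had an unadjusted p under 0.05. The called genes were 84 protein-coding genes (33 higher, 51 lower), 5 long intergenic RNAs, 4 small nucleolar RNAs, 2 processed pseudogenes, 2 unclassified transcripts and 1 immunoglobulin constant gene.

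**Figure D1:**
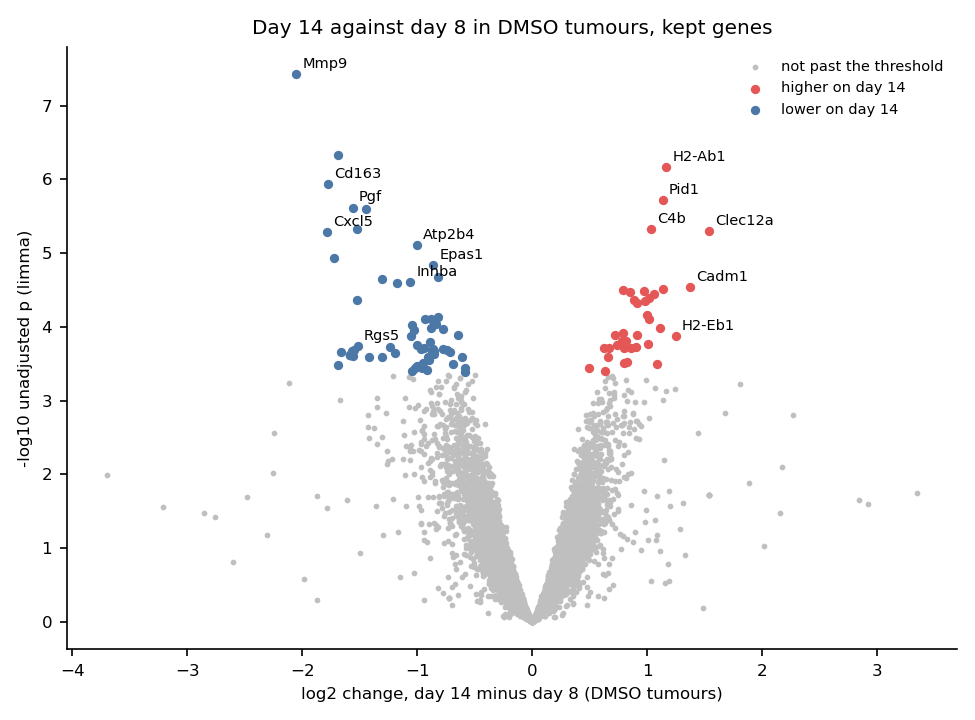
Change and evidence for each of the 11886 genes tested. The horizontal axis is the log2 change from day 8 to day 14 in DMSO tumours and the vertical axis the −log10 of the unadjusted limma p; the 36 red genes were higher and the 62 blue genes lower past the threshold, with Mmp9 at the top left.

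The number of calls depended on single libraries. Leaving out day 8 library 1 left 30 calls and leaving out day 8 library 3 left 24. It was 37 without day 14 library 2 and 36 without day 14 library 3. It rose to 305 without day 8 library 2. In each of the 7 fits without 1 library, and in the 15 other settings, every one of the 98 genes that was fitted kept its sign. As the days of all 98 did not overlap, leaving out a library could not turn a sign. Settings that alter only the filter or the estimate of spread could not do so either. The call was kept in all 7 of these left-out fits by 13 genes: H2-Ab1, C4b, Clec12a and Pid1, which were higher, and Mmp9, Cd163, Cxcl5, Pgf, Cyp26b1, Epas1, Atp2b4, Cryaa and Gm10522, which were lower. The 3 day 8 libraries were compared with 4, and 85 of the 98 calls depended on at least 1 library.

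4 MHC class II genes rose by about a factor of 2. H2-Ab1, the beta chain of I-A, lies on chromosome 17 from 34257689 to 34269419 in GRCm38. It stood at 13.58, 13.68 and 13.81 in the day 8 libraries and at 15.08, 14.93, 14.68 and 14.72 in the day 14 libraries, a log2 change of 1.16 (SE 0.15, adjusted p = 0.00266). Every day 14 library lay above every day 8 library, by more than the range of either day. H2-Aa, the alpha chain of the same molecule, went from 12.31, 12.14 and 12.36 to 13.69, 13.28, 13.24 and 13.44, a change of 1.14 (SE 0.20, adjusted p = 0.0173). H2-Eb1, the beta chain of I-E, went from 11.31, 11.64 and 11.29 to 13.43, 12.06, 12.72 and 12.45, a change of 1.25 (SE 0.25, adjusted p = 0.0346). Its 4 day 14 libraries spread over more than a log2 unit, with library 2 closest to day 8. The invariant chain Cd74 went from 14.95, 15.41 and 14.90 to 16.41, 16.21, 16.08 and 15.70, a change of 1.01 (SE 0.18, adjusted p = 0.0188). These 4 were the genes called among 10 kept of the 11 in the class II list, against 0.303% of all genes. All 10 had a positive change and the list median was 0.66. Of the 10, 6 did not overlap between the days, against 10.1% of all genes. H2-DMa, a chain of the peptide loader, changed by 0.72 (adjusted p = 0.118), the peptide-releasing cathepsin Ctss by 0.52 (adjusted p = 0.142) and Ciita, the master regulator of class II transcription, by 0.59 (adjusted p = 0.277); none of them passed. The eleventh, H2-Oa, was below the filter.

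Of 16 MHC class I genes none passed, 10 had a positive change and their median change was 0.125; the difference between the classes was not tested. The class II calls differed in how far they rested on single libraries. The call of H2-Ab1 held without each library. H2-Aa lost it without day 8 library 1 (adjusted p = 0.0522) or 3 (0.0623), and Cd74 without day 8 library 1 (0.0828) or 3 (0.0758) or day 14 library 2 (0.0512). H2-Eb1 lost it without day 8 library 1 (adjusted p = 0.102) or 3 (0.0956) or day 14 library 3 (0.0844). In these fits the 3 genes kept log2 changes between 0.918 and 1.231. Markers of B cells, which also carry class II, moved the same way: the constant chain Igkc rose by 1.00 (adjusted p = 0.0276), from 4.04, 4.33 and 4.21 to 5.69, 4.99, 5.07 and 5.02. Its call was lost without day 8 library 1 (adjusted p = 0.0899) or 3 (0.0688). It was the only one called of 4 kept B and plasma cell markers of 13. Their summed unlogged level was 206 to 250 on day 8 and 265 to 366 on day 14, against 72100 to 85400 and 123000 to 179000 for class II, and the B cell genes Ms4a1 and Cd79a were below the filter. Of 11 kept dendritic cell markers of 16, 1 was called, the adhesion molecule Cadm1 (7.54, 7.13 and 6.62 against 8.74, 8.88, 8.27 and 7.98; change 1.37, adjusted p = 0.0173), and the list median was 0.018 (without day 8 library 3 the adjusted p of Cadm1 was 0.0688); Flt3 and Clec9a were below the filter.

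The promoters of H2-Aa and H2-Eb1 are shown because both genes rose and class II promoters are known to share a set of boxes, of which the Y box is an inverted CCAAT that NF-Y binds. They are the 250 bases before the annotated start in RefSeq's GRCm38.p6 annotation, 5′ to 3′ on the gene's own strand, with the letters CTGATTGG in capitals.
H2-Aa, chr17:34287824-34288073, minus strand: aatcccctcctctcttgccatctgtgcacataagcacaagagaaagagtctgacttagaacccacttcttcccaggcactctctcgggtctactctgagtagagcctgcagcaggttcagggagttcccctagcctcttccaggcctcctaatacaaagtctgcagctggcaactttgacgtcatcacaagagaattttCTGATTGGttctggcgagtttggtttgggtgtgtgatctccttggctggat
H2-Eb1, chr17:34305617-34305866, plus strand: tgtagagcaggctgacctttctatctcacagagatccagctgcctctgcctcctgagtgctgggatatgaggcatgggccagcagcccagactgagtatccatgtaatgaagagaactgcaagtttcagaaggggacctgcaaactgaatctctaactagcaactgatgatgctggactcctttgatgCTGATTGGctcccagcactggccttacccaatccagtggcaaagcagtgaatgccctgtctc
CTGATTGG begins 51 bases before the start of H2-Aa and 62 bases before that of H2-Eb1. Searched on both strands, it was in 1258 of 32851 promoter windows of this length (3.83%). Of the 11 class II genes 8 had a window in the table, and 3 of these held it, H2-Aa, H2-Eb1 and H2-Oa. H2-Ab1, Cd74 and Ciita had no window, so the called genes H2-Ab1 and Cd74 were not searched. A match of letters is a description and was not tested as a binding site.

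Receptors and sensors of myeloid cells were among the other genes that rose. Clec12a, an inhibitory C-type lectin receptor, had the largest rise of the 36, from 7.33, 7.21 and 7.59 to 9.35, 9.27, 8.34 and 8.70 (change 1.54, SE 0.23, adjusted p = 0.00558). Clec4a3, of the same receptor class, rose by 1.09 (adjusted p = 0.0435). Its day 8 libraries were uneven, at 8.15, 9.28 and 8.57, with library 2 just under the lowest day 14 library, at 9.42. Axl, a receptor kinase through which dying cells are engulfed, went from 9.73, 10.51 and 9.59 to 11.59, 10.84, 11.05 and 10.74 (change 1.11, adjusted p = 0.0324). It was the only gene called of 21 phagocytosis and Fc receptor genes; the related kinase Mertk changed by 0.11 (adjusted p = 0.679). Tlr2, the sensor of bacterial lipopeptides, rose by 0.80 (adjusted p = 0.0428), from 8.33, 8.29 and 8.39 to 8.92, 9.40, 9.36 and 8.86, the only call of 19 Toll-like receptor genes. Mpeg1, the pore-forming perforin-2 of macrophages, rose by 0.79 (adjusted p = 0.0173), from 10.49, 10.61 and 10.40 to 11.36, 11.44, 11.34 and 11.02, the only call of 18 pan-macrophage genes. Of these genes Clec12a kept its call without each library. Mpeg1 lost it without day 8 library 1 (adjusted p = 0.0523) or 3 (0.0688), and Axl without these 2 or day 14 library 3, with adjusted p up to 0.107. Clec4a3 lost it without 5 of the 7 libraries, all but day 8 library 2 and day 14 library 4, with adjusted p up to 0.178. Tlr2 also lost it without 5, all but day 14 libraries 1 and 4, with adjusted p up to 0.119.

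Secreted and regulatory genes rose too. The complement component C4b went from 10.65, 10.07 and 10.48 to 11.62, 11.46, 11.23 and 11.43 (change 1.04, SE 0.16, adjusted p = 0.00558). It was the only call of 16 complement genes, and 48.3% of its transcript's 31-base words also occur in another gene, so reads of the near-copy could have been counted with it. The acute-phase protein gene Saa3 rose by 1.01 (adjusted p = 0.0276), from 10.13, 9.69 and 9.82 to 11.36, 10.69, 10.58 and 10.93. Tgfb3, a transforming growth factor, rose by 0.80 (adjusted p = 0.0372), from 7.17, 7.28 and 7.04 to 7.89, 7.84, 8.34 and 7.79. Pid1, an adaptor protein of insulin signalling, rose by 1.14 (adjusted p = 0.00428) from 8.06, 8.14 and 8.09 to 9.28, 9.48, 8.78 and 9.38. The neighbouring membrane genes Tmem176a and Tmem176b rose by 1.01 (adjusted p = 0.0372) and 1.06 (adjusted p = 0.0175). Among transcription factors, Nr4a2 and Nr4a3, orphan nuclear receptors of the early response, rose by 0.90 (adjusted p = 0.0372) and 0.79 (adjusted p = 0.0346). Mitf, which drives lysosomal and osteoclast genes, rose by 0.82 (adjusted p = 0.0372). Prc1, a cytokinesis protein, rose by 0.92 (adjusted p = 0.0193), although none of 34 kept cell cycle genes passed and Mki67 changed by 0.12. Other genes that rose included Olfml3 (0.91), Pld4 (0.83), the activation marker Cd69 (0.86), the kinase Sgk1 (0.67) and the apoptosis inhibitor Faim (0.97). The Nr4a2 and Nr4a3 rise stands beside 23 kept genes of the immediate-early and dissociation list, of which none passed and whose median was 0.106. C4b and Pid1 kept their calls without each library. Saa3 lost it without day 8 library 3 (adjusted p = 0.0788) or day 14 library 4 (0.0513), and Tmem176b without day 8 library 1 or 3 (up to 0.0688). Tmem176a and Tgfb3 lost it without 4 libraries each (up to 0.137 and 0.0988), and Prc1 and Faim without 3 each (up to 0.0781 and 0.0688). Of the 7 fits without 1 library, Nr4a3 kept its call in 3 and Nr4a2, Mitf, Cd69 and Sgk1 kept theirs in 2. Olfml3 and Pld4 kept theirs in 1.

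Mmp9, the secreted gelatinase that degrades basement membrane collagen, fell most in size of all called genes and had the smallest p. It stood at 14.85, 14.20 and 14.97 on day 8 and at 12.39, 12.64, 12.54 and 12.94 on day 14, a log2 change of -2.05 (SE 0.21, adjusted p = 0.000445). The fall was about 4.14-fold, the lowest day 8 library lay far above the highest day 14 library, and Mmp9 alone of the 98 stayed past the threshold in all 22 other settings. No other gene passed among 19 kept matrix proteases and inhibitors, whose median was -0.27. Of the other metalloproteinases Mmp12 changed by -0.27 (adjusted p = 0.764), Mmp13 by -0.66 (adjusted p = 0.453) and Mmp14 by -0.36 (adjusted p = 0.607). Mmp9 is also a granule protein of neutrophils. The summed level of 10 kept neutrophil markers was 23100 to 35100 on day 8 and 9830 to 12400 on day 14. Mmp9 made up most of that sum, and without it the sum was 2980 to 4220 and 4190 to 4610, so that 3 of the 4 day 14 libraries lay above every day 8 library. Of these 10 markers 7 had a positive change, among them S100a8 (0.24), S100a9 (0.40) and Csf3r (0.27), which did not pass, and Ly6g, Cxcr2, Ltf and Camp were below the filter.

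Cd163, the scavenger receptor for haptoglobin-bound haemoglobin and a marker of resident-type macrophages, fell from 11.01, 11.37 and 11.54 to 9.61, 8.91, 9.75 and 9.84, a change of -1.78 (SE 0.24, adjusted p = 0.00345). No day 14 library came within 1 log2 unit of a day 8 library. It was the only call of 20 genes of the resident-like list, in which 14 had a negative change and the median was -0.19. Cbr2 changed by -0.64 (adjusted p = 0.0944), the platelet factor Pf4 by -0.85 (adjusted p = 0.0878) and the transcription factor Maf by -0.55 (adjusted p = 0.216). The C1q chains went apart, with C1qb at 0.73 (adjusted p = 0.096) and C1qa at -0.29 (adjusted p = 0.665). The mannose receptor Mrc1 changed by -0.38 (adjusted p = 0.757); day 14 library 1 stood at 11.48 and the others of that day at 13.34 to 13.71, and without library 1 the change was 0.129. Fcrls, an Fc receptor-like gene known from microglia, fell by 1.01 (adjusted p = 0.0461), from 8.03, 8.48 and 8.21 to 6.87, 7.18, 7.73 and 7.13. The call of Fcrls held in only 1 of the 7 fits without 1 library.

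Some secreted growth factors and chemokines fell, namely Pgf, Inhba, Cxcl5, Cxcl3 and Ccl24. Pgf, the placental growth factor that binds Flt1, fell from 10.45, 10.62 and 10.43 to 8.86, 8.64, 8.83 and 9.43 (change -1.56, SE 0.22, adjusted p = 0.00428). Inhba, the activin subunit, fell from 10.97, 10.64 and 10.97 to 9.98, 9.93, 9.25 and 10.04 (change -1.06, SE 0.18, adjusted p = 0.0168); its call was lost without day 8 library 1 (adjusted p = 0.0581) or 3 (0.0651). Of 19 kept angiogenic and growth factor genes these 2 fell and Tgfb3 rose, while Vegfa changed by 0.42 (adjusted p = 0.223), Vegfb by -0.18 and Tgfb1 by 0.18. The neutrophil-attracting chemokine Cxcl5 fell from 6.37, 5.41 and 5.97 to 3.95, 4.43, 3.98 and 4.14 (change -1.79, SE 0.27, adjusted p = 0.00558), and Cxcl3, which binds the same receptor, fell by 0.85 (adjusted p = 0.0377). Cxcl3 is a low gene, at 4.42, 3.60 and 4.13 on day 8, and its call was lost without any of 6 libraries, with adjusted p from 0.0663 to 0.146. Both were among 12 kept CXC chemokines, of which Cxcl1 changed by -0.41 (adjusted p = 0.457), Cxcl2 by 0.14 (0.797) and Cxcl9 by -0.15 (0.740). Among 12 CC chemokines only the eosinophil attractant Ccl24 passed, going from 12.59, 12.41 and 12.68 to 11.17, 11.55, 11.79 and 11.92 (change -0.95, adjusted p = 0.0432). Its call was lost without day 8 library 1 or 3 or day 14 library 1, 2 or 3, with adjusted p up to 0.131. Ccl2, the monocyte attractant, changed by 0.05. Other cytokine genes that fell were Tslp (-0.82, adjusted p = 0.0276) and the shared interleukin-6 family receptor Il6st (-0.77, adjusted p = 0.0324). Of the 7 fits without 1 library, Tslp kept its call in 3 and Il6st in 4.

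Regulators and enzymes also fell. Epas1, which encodes the oxygen-regulated factor HIF-2α, went from 8.16, 8.50 and 8.19 to 7.31, 7.29, 7.68 and 7.41 (change -0.86, adjusted p = 0.0123). None of 34 kept hypoxia and glycolysis genes passed, and 25 of these had a positive change. Cyp26b1, which breaks down retinoic acid, fell from 6.53, 6.48 and 7.07 to 5.04, 4.68, 5.35 and 5.61 (change -1.52, adjusted p = 0.00558). The calcium pump gene Atp2b4 fell by 1.00 (adjusted p = 0.00764) and the metal-binding Mt1 by 0.74 (adjusted p = 0.0372). Hdc, which makes histamine, fell by 1.00 (adjusted p = 0.0454), from 9.89, 10.01 and 9.58 to 8.99, 9.07, 8.23 and 9.01. It and Gata2 (-0.90, adjusted p = 0.0377) were the called members of the list of eosinophils, basophils and mast cells, of which 7 of 15 were kept. The list's summed level was 1040 to 1490 on day 8 and 622 to 884 on day 14. Hdc itself made up most of the day 8 sum, and without Hdc the sums overlapped between the days. Cpa3, Fcer1a and Ms4a2 were below the filter. The call of Hdc was lost without any 1 of the 7 libraries, with adjusted p from 0.0602 to 0.137. Gata2 and Mt1 kept their calls in 2 of these 7 fits. Rnu3b1, Rnu3b2, Rnu3b3 and Rnu3b4, copies of the U3 small nucleolar RNA, share 100% of their 31-base words and carry the same values, so they count as 1 measurement (-1.58, adjusted p = 0.0377). Their call also held in 2 of the 7 fits.

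**Figure D2:**
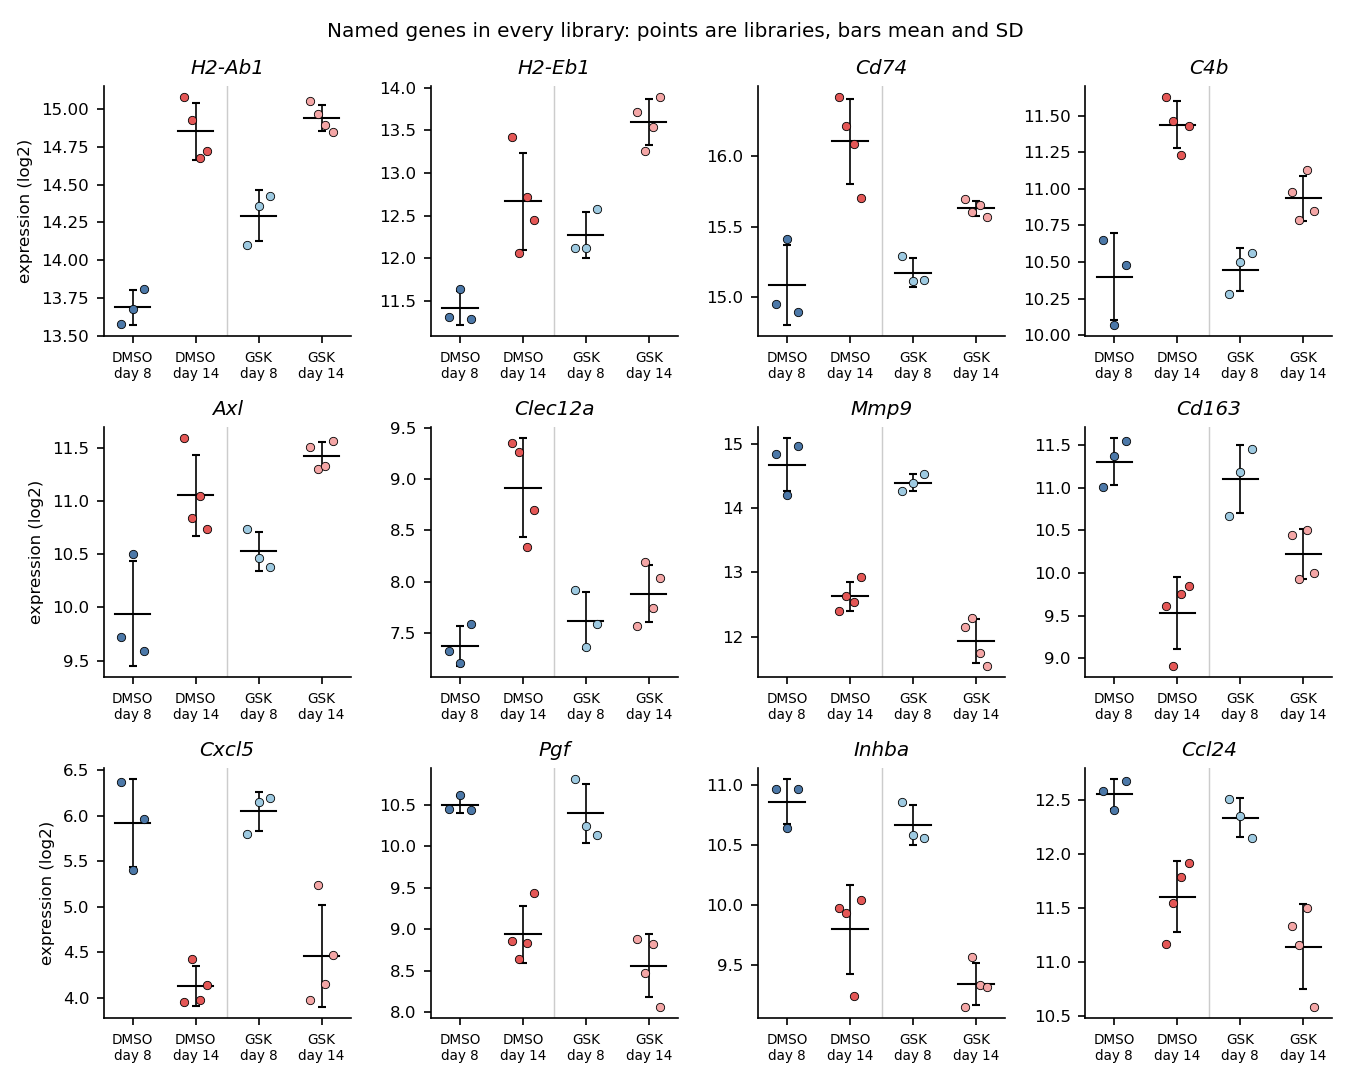
Expression of 12 named genes on the authors' log2 scale, with 1 point per library, bars for the group mean and SD, and DMSO and GSK groups side by side for day 8 (n = 3 each) and day 14 (n = 4 each). In the DMSO groups the days do not overlap for any of the 12; Mmp9 drops from about 14.68 to 12.62.

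Genes of vessels and connective tissue were among the 62 that fell. Hspg2, the basement membrane proteoglycan perlecan, fell from 7.09, 6.65 and 7.52 to 5.47, 5.46, 5.15 and 6.03 (change -1.56, adjusted p = 0.0375). Col4a1, a basement membrane collagen, fell by 1.56 (adjusted p = 0.0377), the pericyte gene Rgs5 by 1.52 (adjusted p = 0.0372) and the smooth muscle actin Acta2 by 1.18 (adjusted p = 0.0168). Acta2 was even within day 14, at 5.24, 5.14, 5.06 and 5.00, against 6.003, 6.27 and 6.59 on day 8. Elastin (Eln, -0.997), Col6a3 (-1.05), Serpine2 (-1.31), Podxl (-1.24), Rgs4 (-1.30) and Enpp2, the lysophospholipase autotaxin (-1.52), fell as well. Of these, the call of Hspg2 was lost without 5 of the 7 libraries and that of Col4a1 without 4, with adjusted p up to 0.111 and 0.119. That of Rgs5 was lost without 5, that of Enpp2 without 3 and that of Acta2 without day 8 library 3 (adjusted p = 0.0688). Col6a3 lost its call in each of the 7 fits without 1 library. Eln and Podxl kept theirs in 2 of these fits, Serpine2 in 1 and Rgs4 in 6. Of the tumour cell's own epithelial genes the tight junction gene Cldn7 passed, falling from 5.17, 5.10 and 5.69 to 3.99, 4.38, 4.02 and 4.13 (change -1.19, adjusted p = 0.0377); it lost the call without any library but day 8 library 2, with adjusted p up to 0.113. The larger change of the keratin Krt18, -1.67, did not pass (adjusted p = 0.0762).

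The marker lists of these cells were lower on day 14 nearly throughout. All 12 kept fibroblast and pericyte markers of 17 had a negative change (2 called, median -0.465). All 15 endothelial markers did (none called, median -0.39, with Pecam1 at -0.61 and Egfl7 at -1.30), as did 10 of 11 kept epithelial markers of 19 (1 called, median -0.60). Summed unlogged levels of these lists did not overlap between the days: 590 to 935 against 349 to 518 for fibroblasts and pericytes, 2670 to 3320 against 1560 to 2200 for endothelium and 2400 to 3140 against 1390 to 2120 for epithelium. The fibroblast and pericyte sum includes the called genes Rgs5 and Acta2, and without them its days overlapped. The pan-macrophage sum overlapped, at 94500 to 103000 on day 8 and 81700 to 112000 on day 14. Pdgfra, Dcn, Lum and Thy1 were below the filter, and the epithelial and endothelial sums are mostly Cdh1 and Pecam1, which macrophages can also express. In these bulk fractions fewer cells of a type and less RNA per cell cannot be told apart. The part of these cell types in the changes of the other genes was not tested, and the levels of the full marker lists do not overlap between the days. With the mean of the epithelial markers as a covariate 3 genes were called and with that of the stromal and endothelial markers 1, Mmp9; all 98 kept their sign, and the median size of their changes was 0.869 and 0.893, against 0.979. H2-Ab1 then changed by 1.084 (adjusted p = 0.0591) and 1.132 (adjusted p = 0.111). Several genes shrank far more with the stromal covariate, some of vessels and stroma and some of other kinds. Rgs5, itself among the markers averaged, then changed by -0.399 (-1.52 without it), Col4a1 by -0.443 (-1.56) and Hspg2 by -0.512 (-1.56). Cldn7 changed by -0.41 (-1.19), Zfp575 by -0.645 (-1.69) and Ubd by -0.693 (-1.66), while Enpp2 stood at -2.072 (-1.52). Why some genes shrank more than others was not tested. Within the kinds of library that the ribosomal RNA genes define, all 98 also kept their sign, which was fixed beforehand because their days do not overlap. The AY036118 kind holds only 1 DMSO day 8 library, against 2 of day 14, so its calls are not interpreted. The median size of the 98 changes was 0.889 there. Among the Gm42418 DMSO libraries, 2 of each day, 1 gene was called, Mmp9 (-2.13, adjusted p = 0.0284).

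**Figure D3:**
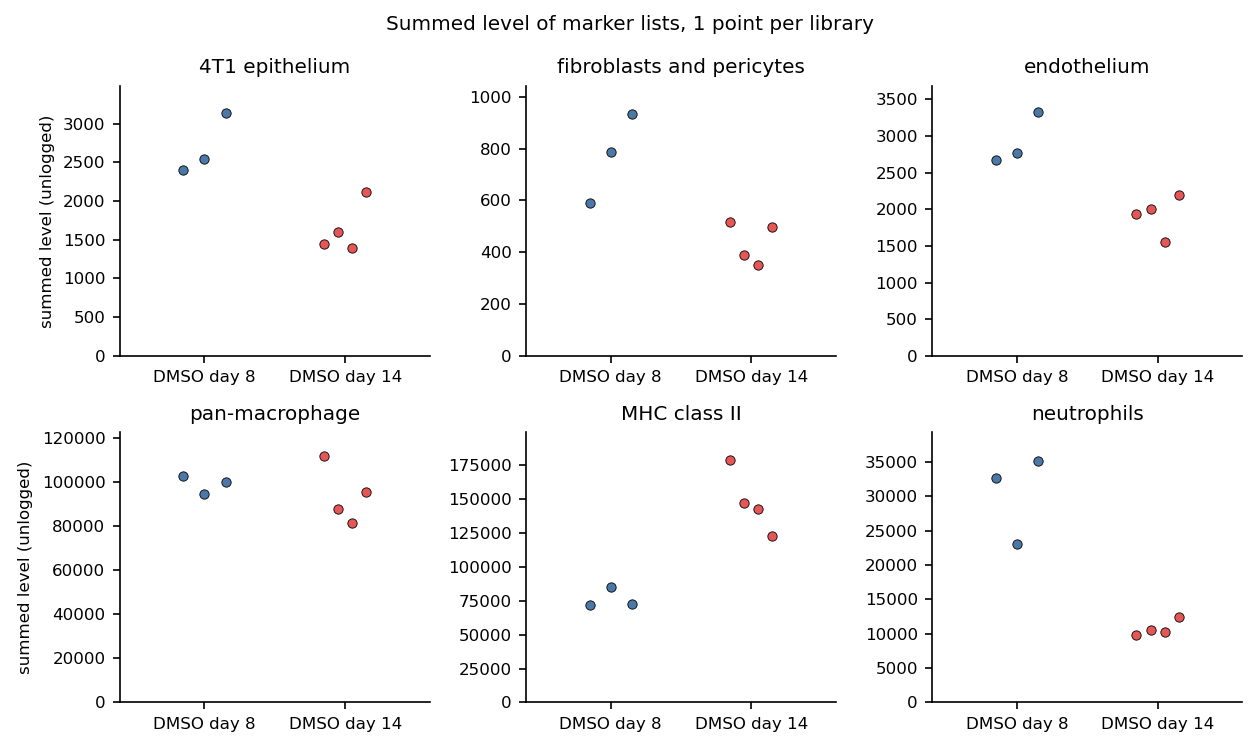
Summed unlogged level of the kept markers of 6 lists in each DMSO library, 3 points for day 8 and 4 for day 14, on axes that start at 0. Epithelial, stromal and endothelial sums were lower and the class II sum higher on day 14 with no overlap, while the pan-macrophage sum overlapped (94500 to 103000 against 81700 to 112000).

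Most macrophage programmes showed no call. No gene passed in the lists of monocytes (16 kept, 14 positive, median 0.211), lipid-associated macrophages (20 kept, median 0.059), classical activation (20 kept, median -0.047), interferon response (31 kept, median 0.117) or NF-kB targets (24 kept, median -0.023). The mean log2 level of the monocyte list did not overlap between the days, at 7.341 to 7.444 on day 8 and 7.619 to 7.738 on day 14. Its summed unlogged level did overlap, at 17100 to 17800 and 15300 to 21500. The monocyte genes Ccr2 and Ly6c2 changed by 0.64 (adjusted p = 0.190) and 0.13 (adjusted p = 0.886), and Cx3cr1 by 0.93 (adjusted p = 0.0944). Apoe, the lipid carrier, changed by 1.16 (adjusted p = 0.0669) and Trem2, a lipid-sensing receptor, by 0.57 (adjusted p = 0.0878). Their libraries did not overlap between the days, as was so for 10.1% of all genes, but neither passed. Arg1, the arginase, was level at 13.78 ± 0.14 (SD, n = 3) and 13.89 ± 0.39 (SD, n = 4). Nos2 changed by 0.23, Cd274, which encodes PD-L1, by -0.22, Spp1 by -0.04, Il1b by 0.30, Csf1r by -0.13 and Lyz2 by 0.21; none passed. In the alternative activation list 2 of 21 genes passed, Cd163 and Ccl24, both lower, while Clec10a changed by -0.76 (adjusted p = 0.0771), Chil3 by 0.86 (0.261) and Retnla by -0.19 (0.853). T and NK cell markers were near the filter, with 4 kept of 21 (Cd3e, Cd2, Cd4 and Cd8b1) and none called.

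**Figure D4:**
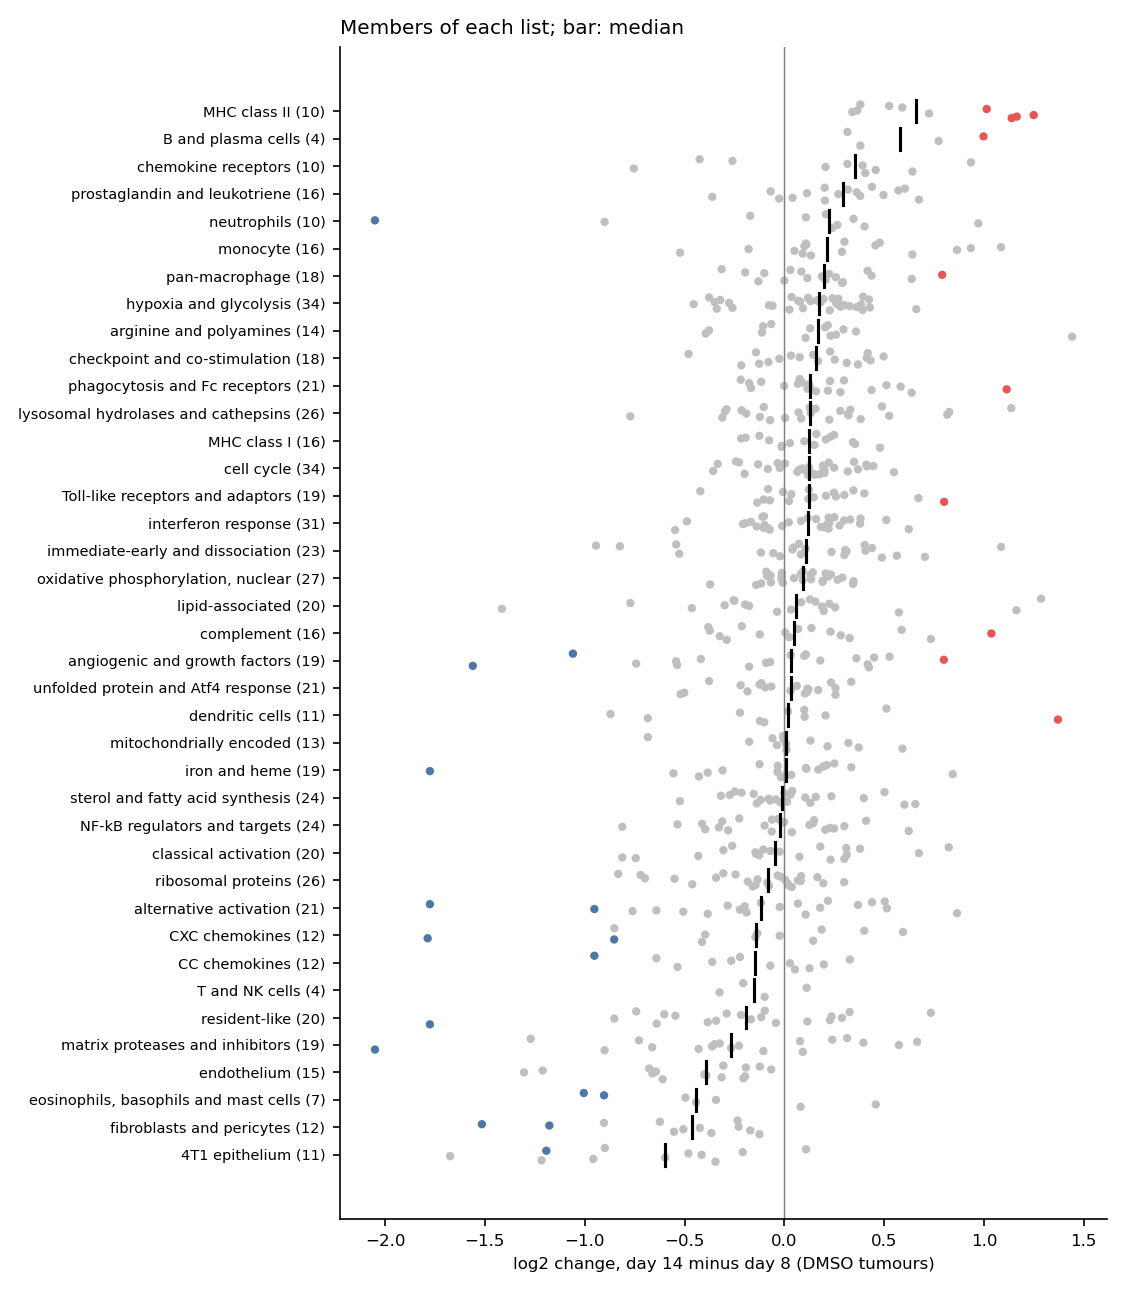
Log2 change from day 8 to day 14 in DMSO tumours for each kept gene of the 39 lists with at least 3 kept genes, with the number kept in brackets, ordered by list median (black bar); the fat pad and erythroid lists are left out. Red and blue points passed the threshold as higher and lower; of the lists drawn, class II has the highest median (0.66) and 4T1 epithelium the lowest (-0.60), and single blue points such as Mmp9 and Cd163 recur where lists share a gene.

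The same interval was measured in the GSK libraries, which share no library with the DMSO comparison but share the fit's estimate of spread. AY036118 held the ribosomal RNA signal in 2 of the 3 GSK day 8 libraries and in all 4 of day 14. Day and kind of library are therefore partly mixed in the GSK change. Of the 36 genes that rose in DMSO, 35 had a positive change there and 14 were called higher (38.9%, against 3.05% of all genes). Of the 62 that fell, 59 had a negative change and 41 were called lower (66.1%, against 3.95%). Together 55 of the 98 were called in the same direction (56.1%, against 7.01% called in either direction). The median change of the 36 was 0.906 in DMSO and 0.476 in GSK, and that of the 62 was -1.01 and -0.808; 75 of the 98 were smaller in size in GSK. The 98 were chosen on their DMSO values. Mmp9 fell by 2.47 in GSK (adjusted p = 1.57e-05), from 14.40 ± 0.13 (SD, n = 3) to 11.93 ± 0.35 (SD, n = 4), and Pgf fell by 1.84 (adjusted p = 0.000499). H2-Eb1 rose by 1.32 (adjusted p = 0.00986), H2-Aa by 1.00 (0.0112) and H2-Ab1 by 0.65 (0.0220), and Cd74 changed by 0.45 (0.135). Pid1 rose by 1.33 (adjusted p = 0.000499) and Axl by 0.90 (0.0269).

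Some genes changed in DMSO with little change in GSK. Clec12a changed by 0.26 in GSK (adjusted p = 0.516), Clec4a3 by 0.09 (0.843), Igkc by -0.01 (0.972) and Clmp, an adhesion protein, by 0.18 (0.617) after -0.91 in DMSO. Cd163 fell by 0.88 in GSK (adjusted p = 0.0375), against 1.78. The test of the difference itself called 1 gene of 11886 (0.00841%), the processed pseudogene Rps6-ps4 (-0.60 in DMSO, 4.49 in GSK, adjusted p = 1.86e-06), and none of the 98. Of the 31-base words of Rps6-ps4, 100% also occur in another gene, so reads of a near-copy could have been counted with it. For Clec12a the difference was 1.28 (unadjusted p = 0.00119, adjusted p = 0.504) and for Cd163 -0.90 (unadjusted p = 0.0163, adjusted p = 0.534). Of the 98, 26 had an unadjusted p under 0.05 for the difference, and over all genes 987 had (8.30%). The 98 were chosen on their DMSO change, which is part of this difference, so the counts cannot be compared. A difference between the pre-treatments in the change with time was therefore not shown for these genes.

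**Figure D5:**
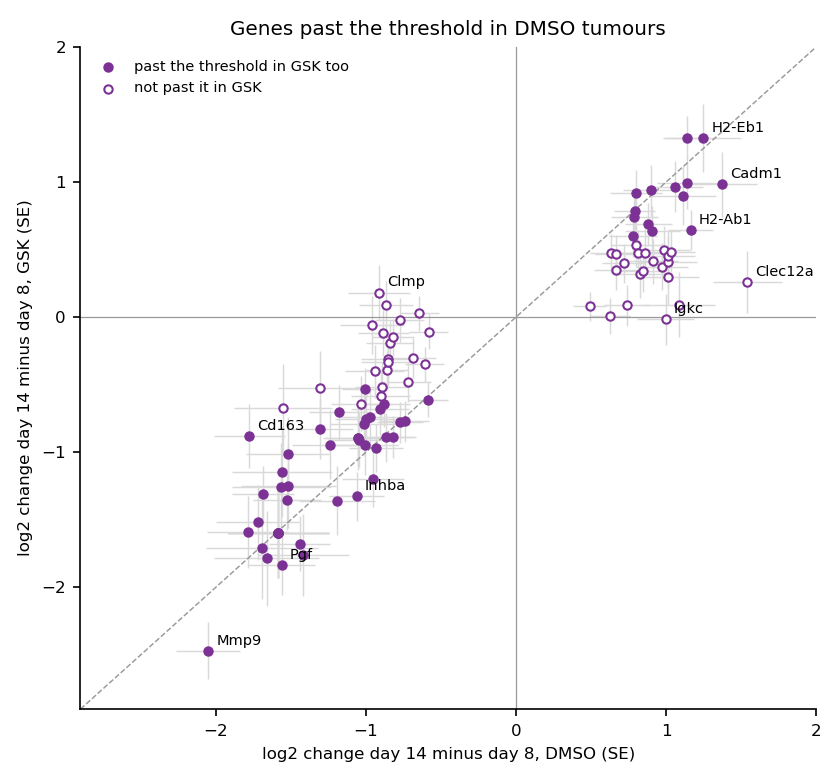
Log2 change from day 8 to day 14 of the 98 genes called in DMSO tumours (horizontal) against the same change in GSK tumours (vertical), with SE bars and the line of equal change dashed. Filled points were called in GSK too (55 of them in the same direction); Mmp9 is at the lower left, and Clec12a and Igkc lie near 0 on the vertical axis.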

How the data were processed

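RNA from F4/80-positive fractions of 4T1 tumours was sequenced; 7 DMSO libraries were compared and 7 GSK269962A libraries shared the fit. The authors deposited 1 table of normalised log2 values. Per the submitters' processing notes, the tools were DESeq2 1.12.4, RSEM 1.2.29 and Bowtie2, and the builds named are mm10 and GRCh38 with no role; the transformation is not given in the sources used here. Low genes look shrunken in it: the median SD over 14 libraries was 0.0338 for 8595 genes with a mean under 1 and 0.294 for 3597 genes with a mean of 6 to 8, so changes of low genes may be understated. Identifiers were matched to GENCODE M21 (GRCm38): 24483 of 24556 matched.

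Here, limma 3.58.1 in R 4.3.3 was fitted to 14 libraries (4 group means, eBayes with a trend) for genes with an unlogged value of at least 10 in 3 libraries. Tests were two-sided. SE is that of the fit. The fit was tested on simulated data. Depth is unknown and limits the precision in a way that cannot be stated.

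The members, the 41 gene lists and the tests were chosen with earlier results of these data known. Named genes were up to 15 per direction by size of change (unlogged mean of at least 50, no overlap, no numbered gene models), up to 5 called genes per list or the 2 with the smallest p, and a fixed set of macrophage genes (99 in all). Other genes were named after their values were seen, among them Gm10522, Epas1, Atp2b4, Mertk and the further list members. Of the 98 called genes, 15 had 10% or more of their 31-base words in common with a different gene. Other settings were no filter, a minimum of 50, a pseudocount of 10, quantile normalisation, TMM rescaling, no trend, library quality weights, a replicate block, only the 7 DMSO libraries, leaving out each library, a term for the ribosomal RNA split, the epithelial mean as a covariate and no pseudogenes or ribosomal genes. The stromal covariate and the restrictions to 1 kind of ribosomal RNA were chosen after seeing the data.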

Additional observations from a re-analysis of the deposited data

Results flagged for a closer look

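In the 99 named genes the 4 DMSO day 14 libraries were examined for a library far from the other 3, and 7 genes had one; chance alone flags about 1 group in 20. Library 1 stood apart in 5 of them: Mrc1, the mannose receptor, at 11.48 with the others at 13.34 to 13.71; Vegfa at 9.36 with the others at 9.91 to 10.01; the mitotic checkpoint gene Bub1b at 5.37 with the others at 5.99 to 6.11; Cxcl3 at 3.06 with the others at 3.24; and Igkc at 5.69 with the others at 4.99 to 5.07. Library 3 was the low one for Inhba, at 9.25 with the others at 9.93 to 10.04, and for Hdc, at 8.23 with the others at 8.99 to 9.07.

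The change with time of Rps6-ps4, a processed pseudogene of a ribosomal protein gene, differed between the pre-treatments by -5.09 on the log2 scale in limma's interaction test (adjusted p = 1.86e-06), with -0.60 in DMSO and 4.49 in GSK tumours.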

How the results depend on the processing

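The 98 calls became 92 to 101 under quantile normalisation, TMM rescaling, a pseudocount of 10 or no trend, 74 with a minimum of 50, 109 without pseudogenes and ribosomal genes, and 115 with the ribosomal RNA term. They became 30 without a filter (27 shared), 19 with library quality weights (18 shared), 22 in the 7 DMSO libraries alone (20 shared), 3 with the epithelial and 1 with the stromal covariate, 26 in AY036118 libraries and 1 in Gm42418 DMSO libraries. Leaving out 1 library gave 24 to 305. Fewer samples enter the restricted fits. The fit to AY036118 libraries has only 1 DMSO day 8 library, so its counts are listed but not interpreted. For the settings that are not restricted the cause was not tested. Whether the numbers pair the libraries cannot be told. Same-numbered deviations correlated at -0.19, -0.34 and -0.10, but each such pair joins an AY036118 with a Gm42418 library. Differently numbered pairs of unlike kind were negative too, at -0.14 to -0.4, and pairs of the same kind were positive, at 0.14 to 0.38. With a replicate block 65 genes were called (19 higher, 46 lower, 53 shared). The interaction's 1 call became 4 with the block, 0 without pseudogenes and ribosomal genes (limma; 930 at an unadjusted p under 0.05), 12 in AY036118 libraries and 1 to 2 when 1 library was left out.

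Over 2166 values of named genes under other settings, 1737 kept direction and side of the threshold, 378 lost the call, 17 gained it and 34 turned sign, none of the latter in a called gene. Sign turns were Spp1 0.012 (quantile) and 0.216 (weights), and Ly6c2 -0.036 (weights). With the epithelial covariate they were Hba-a2 0.056, Ccl2 -0.430, Arg1 -0.116 and Adgre1 -0.128. With the stromal covariate they were Hba-a1 0.246, Hba-a2 0.944, Ccl2 -1.119, Arg1 -0.344, Nos2 -0.164 and Adgre1 -0.223. In AY036118 libraries they were Mrc1 0.112, Csf1r 0.171, Spp1 0.231, Mki67 -0.065, Ly6c2 -0.761, Tgfb1 -0.487 and Mcm7 -0.022. In Gm42418 DMSO libraries they were Lyz2 -0.225 and Adgre1 -0.068. Leaving out 1 library gave Spp1 -0.231 to 0.214, Ly6c2 -0.113 to 0.457, Tgfb1 -0.020 to 0.502, Ccl2 -0.155 to 0.380, Mrc1 -0.883 to 0.129, Csf1r -0.362 to 0.081 and Arg1 -0.068 to 0.209.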
